A study of Mus musculus with 12 samples.

Results

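The G2 and mitosis genes are 52 genes, listed by symbol, whose products carry a cell from the end of DNA replication through chromosome segregation to the separation of the daughter cells. All 52 symbols were rows of the deposited table of 32544 genes, and all 52 passed the filter on low counts, which kept 14285 genes. The rule for membership uses no measured value, though the members were chosen with earlier results of these data known. The study compared bone marrow-derived macrophages (BMDMs) of mice with and without a myeloid deletion of PHD2, an oxygen-sensing prolyl hydroxylase, and 3T3 fibroblasts, a mouse embryonic fibroblast line, grown in medium that these macrophages had conditioned. Poly(A) RNA was sequenced in 3 libraries for each of 4 groups, described by the source as triplicates. Nothing states that these came from separate mice or cultures, so p-values measure only the spread between these libraries.

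The controls, called WT, were macrophages of LysMCre mice, and those labelled PHD2cko came from LysMCre mice with the conditional PHD2 knockout. Both shared 1 genetic background. LysM-driven Cre acts in myeloid cells, and deletion through it can be partial. The BMDMs had been grown for 7 days with 10% serum and 15% L929-conditioned medium and were taken 24 h after seeding. The fibroblasts had been starved for 24 to 48 h in 0.1% serum. They were then kept for 72 h in medium of WT or PHD2cko BMDMs, which itself held 2% serum and 15% L929-conditioned medium. The oxygen condition of the sequenced cultures was not given in the sources used here. Egln1, the gene of PHD2, was at 54.7 to 55.8 CPM in the WT BMDM libraries and at 68.3 to 71.6 CPM in those labelled PHD2cko, so its transcript went against the label (CPM are counts per 1e6 counts after TMM scaling). Of 6 known target genes of HIF, the factor that PHD2 marks for degradation, 4 were higher with the PHD2cko label in BMDMs by edgeR, against 3.38% of all genes, and this was looked at after results of these data were known. Their log2 fold changes were 1.96 for Egln3, 0.96 for Pdk1, 0.85 for Bnip3 and 0.46 for Slc2a1, while Car9 (0.12) and Vegfa (-0.03) did not pass. For Egln3, Pdk1, Bnip3 and Slc2a1 all 3 libraries labelled PHD2cko lay above all 3 WT libraries. The libraries are called by their labels throughout, and every direction below follows them. The table gives 1 value per gene, which does not show whether the transcript held the deleted part.

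G2 and mitosis genes are transcribed together late in each cell cycle, so that their transcripts are plentiful in dividing cells and scarce in resting ones. CDK1 bound to a B-type cyclin starts mitosis, kinetochores and the spindle attach and move the chromosomes that condensin has packed, and the anaphase-promoting complex ends mitosis by marking cyclin and securin for destruction. Macrophages given L929-conditioned medium, a source of the growth factor CSF1, keep dividing for a time, whereas starved fibroblasts leave the cycle and re-enter it when serum returns. In bulk RNA, a smaller share of dividing cells and less RNA of these genes per dividing cell cannot be told apart.

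Many genes of this kind carry short shared letters before their start, the cell cycle homology region (CHR), which binds the DREAM and MYB-MuvB complexes, and the CCAAT box, which binds NF-Y. Of the 52 members, 45 had an entry in the RefSeq promoter table of GRCm38.p6, which gives 250 bases before to 50 bases after the start (the others were Cdc25c, Fam64a, Aurkb, Tpx2, Dlgap5, Smc4 and Cdca2). TTTGAA, the letters searched for the CHR on both strands, were present in 32 of these 45 (71.1%), against 20.2% of the promoters of 27025 genes. CCAAT, also searched on both strands, was present in 35 (77.8%), against 41.1% of all, and both lay in the promoter of the same start in 26 (57.8%), against 7.97% of all. For the single motifs, a match at any listed start of a gene was counted. These matches are a description of letters and not of binding. The 150 bases before the start are shown for Cdk1, which starts mitosis, for Top2a, which was higher with the PHD2cko label in both cell types, for Mki67 and Ect2, which rose in the fibroblasts, and for Psrc1 and Lbr, the members that fell in 1 cell type. The capitals mark TTTGAA and CCAAT in either orientation (TTCAAA and ATTGG on the strand shown). The stretches lie at chr10:69352913-69353062 (minus strand), chr11:99024190-99024339 (minus), chr7:135716380-135716529 (minus), chr3:27153879-27154028 (minus), chr3:108383688-108383837 (plus) and chr1:181842402-181842551 (minus) of GRCm38.p6, and the last bases of the Cdk1 stretch lie in the first exon of a longer GENCODE transcript. The Lbr stretch lies within the Lbr gene as GENCODE annotates it, downstream of that gene's outermost start and outside its exons.
Cdk1: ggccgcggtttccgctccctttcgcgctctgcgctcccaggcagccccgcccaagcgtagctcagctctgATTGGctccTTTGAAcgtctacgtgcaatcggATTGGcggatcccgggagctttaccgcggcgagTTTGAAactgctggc
Top2a: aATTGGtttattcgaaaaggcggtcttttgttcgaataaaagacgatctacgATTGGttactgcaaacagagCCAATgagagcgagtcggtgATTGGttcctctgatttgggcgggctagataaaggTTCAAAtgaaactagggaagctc
Mki67: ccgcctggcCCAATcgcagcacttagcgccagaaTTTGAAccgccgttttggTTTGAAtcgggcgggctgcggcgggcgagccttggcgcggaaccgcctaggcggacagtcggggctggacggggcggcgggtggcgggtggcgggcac
Ect2: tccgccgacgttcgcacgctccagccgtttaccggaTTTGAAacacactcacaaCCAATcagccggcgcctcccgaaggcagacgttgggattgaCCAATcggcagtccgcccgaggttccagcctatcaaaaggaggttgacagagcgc
Psrc1: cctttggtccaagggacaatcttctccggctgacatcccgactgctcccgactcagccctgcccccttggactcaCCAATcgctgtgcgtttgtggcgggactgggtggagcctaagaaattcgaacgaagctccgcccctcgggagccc
Lbr: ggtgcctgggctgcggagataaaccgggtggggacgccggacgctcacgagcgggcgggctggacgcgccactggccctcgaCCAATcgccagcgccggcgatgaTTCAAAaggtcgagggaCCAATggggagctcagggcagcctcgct
The stretch of Psrc1 held CCAAT and no TTTGAA, while that of Lbr held both, as did those of the other 4 genes shown. No match says only that these letters were not in this window.

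Before the comparisons, the libraries themselves were examined. Totals ran from 15516465 to 25199770 counts. In BMDMs, the summed level of 23 macrophage markers was 43350 to 49200 CPM over the total count, with Lyz2 highest, and the 16 fibroblast markers summed to no more than 27.2 CPM. In 3T3 fibroblasts, the 16 fibroblast markers, led by Col1a2, summed to 30040 to 36720 CPM. The macrophage markers there summed to 41.0 to 42.6 CPM in WT medium and to 238 to 1017 CPM in PHD2cko medium, and 22 of the 23 were higher past the threshold. Granulocyte, erythroid and dendritic cell markers summed to at most 1.33, 0.675 and 4.73 CPM in any group. B lineage markers, nearly all of it Ighm, reached 196 to 203 CPM in WT BMDMs and 161 to 175 CPM in those labelled PHD2cko. Among 6 markers of mast, stem and progenitor cells, Cd34 was at 135 CPM in 3T3 in WT medium and 219 CPM in PHD2cko medium.

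Replicate 1 of the 3T3 libraries in WT medium stood apart. Its counts differed from those of replicates 2 and 3 by a chi-square of 24.6 and 26.2 per degree of freedom, whereas replicates 2 and 3 differed by 2.34. Among BMDMs labelled PHD2cko, replicate 3 differed from replicates 1 and 2 by 8.13 and 7.14, and these differed by 2.11. Replicates in PHD2cko medium differed by 6.41 to 6.96 and those of WT BMDMs by 1.97 to 4.32. The 52 members showed the difference of replicate 1 in WT medium by transcript length. In that library long members were low and short members high, with a Spearman correlation of -0.71 between exon length and the deviation from the other replicates (n = 52 members, which share 1 library, given without a test). Over 13853 genes with a length the same correlation was -0.49. The main counts and sums of the comparison between the media are therefore also given without it.

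**Figure D1:**
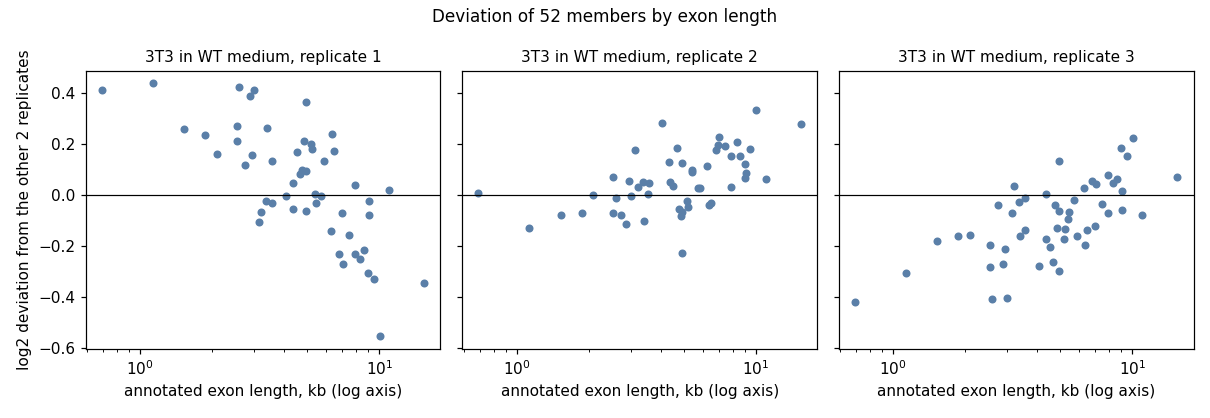
Each point is 1 of the 52 members in a 3T3 library in WT medium, with its annotated exon length in kb (log axis) against the log2 deviation of its CPM (pseudocount 0.5) from the mean of the other 2 replicates. In replicate 1 the points fall from short to long members (Spearman -0.71). Replicates 2 and 3, each set against a mean that includes replicate 1, show the opposite slope (0.57 and 0.66).

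The first comparison asked whether the PHD2cko label changed these genes in the macrophages themselves. In BMDMs, 50 of the 52 members were at a higher estimate in the libraries labelled PHD2cko, with a median log2 fold change of 0.21 (15.4% higher), against a median of 0.00 over all genes tested. The test, a quasi-likelihood fit in edgeR whose p-values were adjusted over 14285 genes by the Benjamini-Hochberg method, called 11 members higher and 1 lower (adjusted p under 0.05). Over all genes tested, it called 3.38% higher and 3.35% lower. At an unadjusted p under 0.05, 33 members were higher, against 10.0% of all genes. For 32 members all 3 libraries labelled PHD2cko lay above all 3 WT libraries, and for 1 all lay below, against 16.3% above and 15.6% below over all genes. The changes were small, from -0.22 to 0.38 on the log2 scale.

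Summed over the members, the WT BMDM libraries held 2805, 2987 and 2952 CPM and those labelled PHD2cko 3537, 3128 and 3332 CPM. Every PHD2cko-labelled library was above every WT library, and the means differed by 14.3% (2915 ± 96.7 against 3332 ± 204 CPM, SD, n = 3 each; exact two-sided permutation p = 0.1, the smallest that 3 against 3 can give). The rise was uneven between libraries. Replicate 1 labelled PHD2cko was the highest of its group for 42 members and replicate 2 the lowest for 39, and WT replicate 1 was the lowest of its group for 37.

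**Figure D2:**
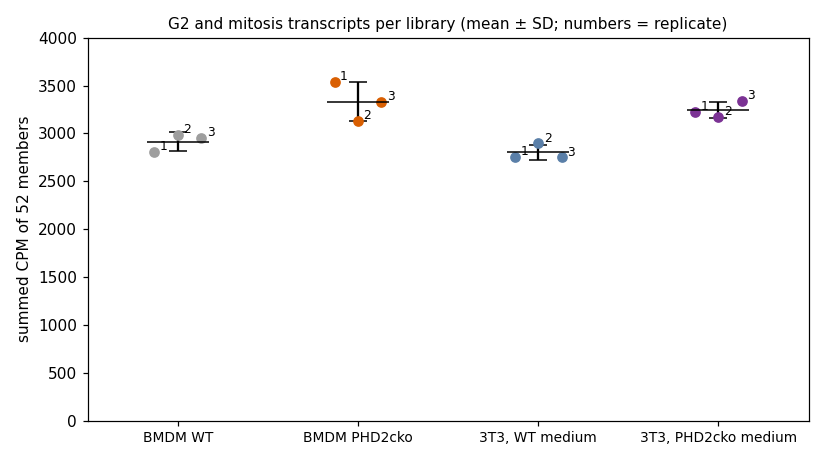
Summed CPM of the 52 members (TMM scaling) in each of the 12 libraries, as points numbered by replicate, with the mean and SD of each group as a line and bars. The groups with the PHD2cko label sit between 3128 and 3537 CPM, and the WT groups between 2750 and 2987 CPM.

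Among the 10 genes of CDK1, its cyclin and subunits and the anaphase-promoting complex, all 10 estimates were above 0 in BMDMs (0.03 to 0.38 on the log2 scale), and 0 passed the threshold by edgeR, with 5 at an unadjusted p under 0.05. Cdk1, the kinase that starts mitosis, was at 30.4, 30.6 and 31.1 CPM in WT and 43.3, 34.7 and 37.9 CPM in libraries labelled PHD2cko. The groups did not overlap, yet the log2 fold change of 0.33 (SE 0.110) missed the threshold (adjusted p = 0.101, edgeR), and the spread came mainly from the PHD2cko-labelled libraries. Ccnb2, a B-type cyclin that activates CDK1, overlapped, with 50.2, 52.5 and 54.7 CPM in WT against 61.4, 53.3 and 59.7 CPM (log2 fold change 0.15, adjusted p = 0.405, edgeR). The smallest p of the group belonged to Fam64a, with 17.1, 21.7 and 19.4 CPM against 26.8, 22.2 and 26.4 CPM (log2 fold change 0.38, SE 0.110, adjusted p = 0.0642, edgeR). Cdc25c, the phosphatase that activates CDK1, was the lowest in level and the least changed (log2 fold change 0.03).

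Of the 10 genes of the kinetochore, centromere and spindle checkpoint, 3 rose in the BMDMs labelled PHD2cko: Ndc80, Bub1 and Cenpa. Ndc80, a subunit of the complex that holds microtubules at the kinetochore (ENSMUSG00000024056.10, chromosome 17, 71496100 to 71526857), was at 18.2, 16.9 and 18.3 CPM in WT and 24.2, 22.1 and 23.0 CPM with the PHD2cko label. The groups lay well apart, with a log2 fold change of 0.38 (SE 0.0701, adjusted p = 0.00565, edgeR), and Ndc80 kept its call in all 6 fits that left out 1 BMDM library. Bub1, a checkpoint kinase, had 23.3, 25.9 and 27.7 CPM against 36.4, 30.2 and 32.1 CPM, without overlap (log2 fold change 0.36, SE 0.0842, adjusted p = 0.0219, edgeR). Cenpa, the histone H3 variant that marks the centromere, had a log2 fold change of 0.28. Its chaperone Hjurp was at 0.13 and Nuf2, the partner of Ndc80, at 0.11, neither past the threshold.

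The chromosomal passenger complex corrects faulty attachments. None of its 3 genes among the 52 passed the threshold in BMDMs (2 at an unadjusted p under 0.05). Aurkb, its kinase, was at 33.0, 31.8 and 33.0 CPM in WT and 36.4, 32.7 and 35.0 CPM with the PHD2cko label, with overlap (log2 fold change 0.09, adjusted p = 0.591, edgeR). Cdca8, which encodes borealin, was at 27.1, 26.2 and 30.2 CPM against 35.9, 29.99 and 32.8 CPM, and these groups also overlapped (log2 fold change 0.24, adjusted p = 0.126, edgeR).

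Of 14 spindle and centrosome genes, all 14 estimates were above 0 (0.08 to 0.34 on the log2 scale), and Tacc3, Nusap1 and Tubb4b passed. Tacc3, which stabilises the microtubule bundles that pull on kinetochores, was at 36.4, 39.8 and 39.0 CPM in WT and 53.0, 42.1 and 50.4 CPM in the libraries labelled PHD2cko. The lowest of the latter was just above the highest WT library (log2 fold change 0.34, SE 0.0854, adjusted p = 0.0318, edgeR). Nusap1, a microtubule-bundling protein, and Tubb4b, a beta-tubulin, both had a log2 fold change of 0.32. Kif11, the motor that separates the spindle poles, had 0.23 and did not pass (adjusted p = 0.0837, edgeR).

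Of the 2 condensin subunits among the 52, Ncapd2 rose and Smc4 did not pass (log2 fold change 0.09); other subunits are given with the related mitosis genes. Ncapd2 was at 66.4, 76.9 and 74.2 CPM in WT and 91.1, 83.5 and 82.3 CPM with the PHD2cko label, without overlap (log2 fold change 0.24, SE 0.0647, adjusted p = 0.0447, edgeR). Among 6 other chromosome and chromatin proteins, only Top2a passed in BMDMs. Top2a, the topoisomerase that untangles sister chromatids (ENSMUSG00000020914.17, chromosome 11, 98992943 to 99024189), was at 189, 208 and 202 CPM in WT and 269.6, 230.0 and 244 CPM with the PHD2cko label. These groups did not overlap (log2 fold change 0.31, SE 0.0632, adjusted p = 0.00965, edgeR). Mki67, which encodes the proliferation antigen Ki-67, was at 337, 365 and 354 CPM against 429, 358 and 408 CPM, so that replicate 2 labelled PHD2cko lay within the WT range (log2 fold change 0.18, adjusted p = 0.497, edgeR). Hmgb2, a chromatin protein on chromosome 8, was the 1 member besides Lbr with a negative estimate (log2 fold change -0.03).

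Of the 5 cytokinesis genes, Anln and Kif20b rose in BMDMs, and Ect2, Kif23 and Gas2l3 had log2 fold changes of 0.14 to 0.17 that did not pass. Anln encodes anillin, the scaffold of the contractile ring, and was at 50.05, 56.7 and 53.5 CPM in WT and 73.6, 59.3 and 66.0 CPM with the PHD2cko label (log2 fold change 0.31, SE 0.0723, adjusted p = 0.0209, edgeR). Its groups did not overlap, and Kif20b, a kinesin of the late midzone, had a log2 fold change of 0.29. The nuclear envelope pair moved in opposite directions. Tmpo, which encodes the LAP2 proteins that bind lamin and chromatin, rose (log2 fold change 0.21, SE 0.0490, adjusted p = 0.0231, edgeR). Lbr, the lamin B receptor and also a sterol reductase (ENSMUSG00000004880.11, chromosome 1, 181815335 to 181843046), fell from 65.6, 66.0 and 61.4 CPM in WT to 55.7, 55.4 and 54.7 CPM. Its 3 PHD2cko-labelled libraries were close together and all below WT (log2 fold change -0.22, SE 0.0459, adjusted p = 0.0117, edgeR).

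How many members passed in BMDMs depended on single libraries, while nearly all directions held. Without WT replicate 1, 1 member was higher past the threshold (Ndc80), against 1.81% of all genes. Without WT replicates 2 or 3 there were 5 and 4, against 2.10 and 2.09% of all genes. Without replicates 1, 2 or 3 labelled PHD2cko there were 2, 12 and 3, against 1.86, 2.28 and 2.19% of all genes. In these 6 fits, 49 or 50 of the 52 estimates were above 0. The call on Lbr was lost without WT replicate 1 or 2, with a log2 fold change between -0.25 and -0.20 in all 6 fits. When the 6 BMDM libraries were fitted alone, 30 members were higher, against 8.11% of all genes in that fit, and these included all 11 of the fit on 12 libraries.

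**Figure D3:**
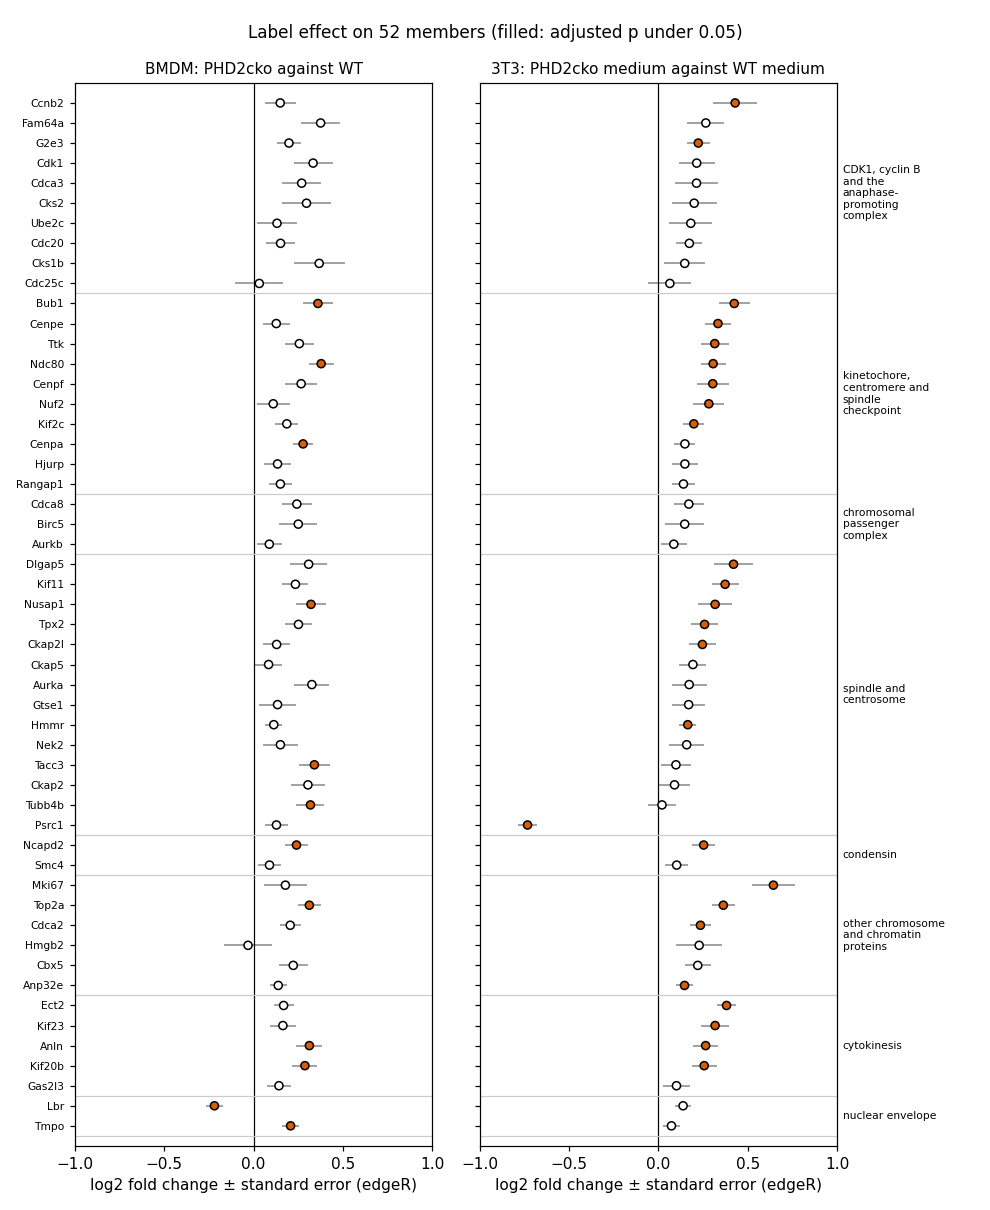
Log2 fold change (points) with its edgeR standard error (bars) of each of the 52 members, grouped by role, for PHD2cko against WT BMDMs (left) and for 3T3 fibroblasts in PHD2cko against WT medium (right). Filled points passed an adjusted p under 0.05. Nearly all points lie to the right of 0, with Lbr the filled exception on the left panel and Psrc1 (-0.73) on the right.

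The second comparison asked whether medium conditioned by PHD2cko-labelled macrophages changed the same genes in fibroblasts. It shares no libraries with the first, but both were read from 1 fit to all 12 libraries and share its estimate of the spread of each gene. In 3T3 cells, 51 of 52 members were at a higher estimate in PHD2cko medium, with a median log2 fold change of 0.21 (15.4% higher), against -0.01 over all genes tested. Past the threshold, 24 members were higher and 1 was lower, against 8.93% higher and 6.75% lower over all genes. At an unadjusted p under 0.05, 31 members were higher, against 14.8% of all genes. The 3 libraries in PHD2cko medium lay above the 3 in WT medium for 27 members and below for 1, against 15.4% and 16.5% over all genes. Summed over the members, the libraries in WT medium held 2757, 2896 and 2750 CPM and those in PHD2cko medium 3228, 3171 and 3337 CPM. The groups did not overlap, with a difference of 15.9% (2801 ± 82.1 against 3245 ± 84.0 CPM, SD, n = 3 each; exact two-sided permutation p = 0.1, the smallest possible).

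Of the 10 genes of CDK1, cyclin B and the anaphase-promoting complex, Ccnb2 and G2e3 rose in PHD2cko medium. Ccnb2 (chromosome 9, 70407692 to 70421547) was low in fibroblasts, at 8.14, 6.89 and 6.55 CPM in WT medium and 11.4, 8.22 and 9.35 CPM in PHD2cko medium. Its lowest library in PHD2cko medium was only just above replicate 1 in WT medium (log2 fold change 0.43, SE 0.122, adjusted p = 0.0327, edgeR). The call on Ccnb2 was lost with limma-voom (adjusted p = 0.0528), in the 6 fibroblast libraries alone (0.129) and after subtraction of the macrophage share (log2 fold change 0.35, adjusted p = 0.0669), and in 4 of the 6 fits that left out 1 library. G2e3, a ubiquitin ligase of G2 phase, had a log2 fold change of 0.22. Cdk1 overlapped, because replicate 1 in WT medium was as high as the libraries in PHD2cko medium, with 58.4, 47.8 and 42.9 CPM against 57.9, 53.9 and 61.1 CPM (log2 fold change 0.21, adjusted p = 0.179, edgeR). Without that replicate the log2 fold change of Cdk1 was 0.36 and passed.

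Of the 10 kinetochore, centromere and checkpoint genes, 7 rose in fibroblasts: Bub1 (0.42), Cenpe (0.33), Ttk (0.31), Ndc80 (0.31), Cenpf (0.30), Nuf2 (0.28) and Kif2c (0.20, each a log2 fold change). Bub1 was at 17.5, 18.2 and 15.7 CPM in WT medium and 23.6, 21.9 and 23.7 CPM in PHD2cko medium. The groups lay apart (SE 0.0865, adjusted p = 0.00571, edgeR), and Bub1 passed in all 6 fits that left out 1 fibroblast library. The 7 include Ndc80 and its partner Nuf2, the motor CENP-E, the checkpoint kinases Bub1 and Ttk, and the microtubule depolymerase Kif2c. Cenpa, Hjurp and Rangap1 had log2 fold changes of 0.14 to 0.15 and did not pass.

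The 3 chromosomal passenger members did not pass in fibroblasts either, and 0 were at an unadjusted p under 0.05 by edgeR. Incenp, the scaffold of the complex and not among the 52, rose there (log2 fold change 0.31, adjusted p = 0.0321, edgeR) and had 0.03 in BMDMs; it was named after its values were seen. Cdca8 was at 26.2, 23.6 and 22.0 CPM in WT medium and 27.1, 25.5 and 28.3 CPM in PHD2cko medium (log2 fold change 0.17, adjusted p = 0.204, edgeR). Aurkb was at 21.7, 20.7 and 18.2 CPM against 22.4, 19.8 and 22.1 CPM (log2 fold change 0.09, adjusted p = 0.478, edgeR). Both overlapped between the groups, and without replicate 1 in WT medium 1 of the 3, Cdca8, passed.

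Spindle and centrosome genes held the 1 member that fell in fibroblasts. Of 14, Dlgap5 (0.42), Kif11 (0.37), Nusap1 (0.32), Tpx2 (0.26), Ckap2l (0.25) and Hmmr (0.16, each a log2 fold change) rose. Kif11 passed in all 6 such fits. Psrc1, which encodes a microtubule-binding protein of the spindle and a known target of p53 (ENSMUSG00000068744.12, chromosome 3, 108383839 to 108388231), went the other way. It was at 60.4, 62.6 and 60.3 CPM in WT medium and 36.0, 36.7 and 37.7 CPM in PHD2cko medium. The 2 groups were each tight and far apart (log2 fold change -0.73, SE 0.0508, adjusted p = 1.1e-05, edgeR), and the fall was past the threshold in every alternative run on it, with log2 fold changes from -0.75 to -0.71 when single libraries were left out.

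In condensin, Ncapd2 rose from 52.5, 59.0 and 56.7 CPM in WT medium to 68.1, 64.5 and 68.0 CPM in PHD2cko medium, without overlap (log2 fold change 0.25, SE 0.0649, adjusted p = 0.0200, edgeR). Smc4 had 0.10 and did not pass. Of the 6 other chromosome and chromatin proteins, Mki67, Top2a, Cdca2 and Anp32e rose. Mki67 (ENSMUSG00000031004.8, chromosome 7, 135689784 to 135716361) was at 97.7, 147 and 140.0 CPM in WT medium and 203, 192 and 206 CPM in PHD2cko medium. It had the largest rise of the 52 (log2 fold change 0.64, SE 0.122, adjusted p = 0.00354, edgeR), and part of its spread was the low value of replicate 1 in WT medium, without which the log2 fold change was 0.50 and still passed. Top2a was at 202, 216 and 211 CPM against 274, 259 and 278 CPM, without overlap (log2 fold change 0.36, SE 0.0628, adjusted p = 0.00201, edgeR). Cdca2, a phosphatase-targeting protein of mitotic chromatin, had a log2 fold change of 0.24 and Anp32e, a chaperone that removes H2A.Z, one of 0.15.

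Of the 5 cytokinesis genes, 4 rose in fibroblasts: Ect2 (0.38), Kif23 (0.32), Anln (0.26) and Kif20b (0.26, each a log2 fold change). Ect2, the exchange factor that activates RhoA at the cleavage site (ENSMUSG00000027699.19, chromosome 3, 27097222 to 27153878), was at 28.7, 29.9 and 27.4 CPM in WT medium and 37.8, 36.3 and 37.9 CPM in PHD2cko medium. These groups were far apart against their spread (SE 0.0534, adjusted p = 5.3e-04, edgeR). Gas2l3, which links actin and microtubules at the midbody, had a log2 fold change of 0.10 and did not pass. In the nuclear envelope, Lbr was at 61.0, 56.9 and 57.3 CPM in WT medium and 63.1, 64.2 and 65.4 CPM in PHD2cko medium, without overlap but short of the threshold (log2 fold change 0.14, SE 0.0447, adjusted p = 0.0550, edgeR), and Tmpo had 0.07.

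**Figure D4:**
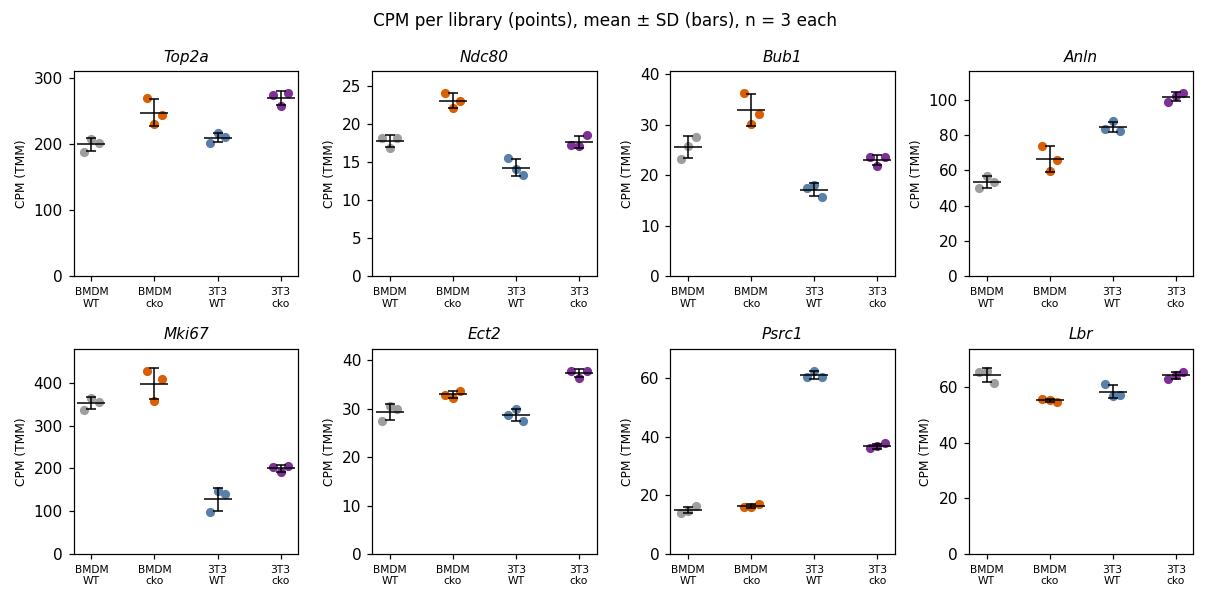
CPM of 8 members in each library (points), with mean and SD (n = 3 per group), where WT and cko name the BMDM label or, for 3T3, the label of the medium. Top2a, Ndc80, Bub1 and Anln are higher with the PHD2cko label in both cell types, Mki67 and Ect2 passed the threshold in 3T3 alone, Psrc1 falls to 36.0 to 37.7 CPM in 3T3 in PHD2cko medium, and Lbr falls in BMDMs.

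The count in fibroblasts also moved with single libraries. Without replicate 1 in WT medium, the library that deviated by length, 36 members were higher, against 11.9% of all genes in that fit, with 14 gained (among them Cdk1, Cdc20, Ube2c, Cks1b, Cks2, Cenpa and Smc4) and Ckap2l and Nusap1 lost. Without WT medium replicate 3, PHD2cko medium replicate 1 and PHD2cko medium replicate 3, the count was 14, 10 and 6, against 8.18, 5.81 and 5.63% of all genes. Without WT medium replicate 2 and PHD2cko medium replicate 2 it was 20 and 19, against 7.13 and 8.85%. Across the 6 fits, 50 or 51 of the 52 estimates were above 0. Fitted alone, the 6 fibroblast libraries called 9 members higher, against 4.43% of all genes in that fit, and all 9 were among the 24. The 5 fibroblast libraries without replicate 1 in WT medium, an alternative chosen after seeing the data, called 28, against 8.35% of all genes in that fit, and 17 of these were among the 24. Without replicate 1 in WT medium, the mean summed CPM was 2823 in WT medium, and that in PHD2cko medium was 15.0% higher. By role, 9 of 10 genes of CDK1, cyclin B and the anaphase-promoting complex, 9 of 10 kinetochore genes, 4 of 14 spindle genes, all 6 other chromosome proteins and 4 of 5 cytokinesis genes were then higher past the threshold.

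Member length moved with the result in the same library. The Spearman correlation of exon length with the fibroblast log2 fold change was 0.30 over the 52 members and -0.13 without replicate 1 in WT medium (given without a test, since the members share the libraries). Macrophage transcripts moved with the medium label. Relative to the BMDMs of the same label, the macrophage markers stood at 0.0844 to 0.0877% in WT medium and at 2.31, 0.542 and 2.06% in PHD2cko medium. After that share of the BMDM profile had been subtracted from each fibroblast library, 25 members were called higher and 1 lower, against 6.89% of all genes called higher in that fit, and the median log2 fold change was 0.22. Of the 24 called before, 23 were kept and Ccnb2 was lost, while Cbx5 and Lbr were gained.

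Set side by side, 7 members rose past the threshold in both cell types (Anln, Bub1, Kif20b, Ncapd2, Ndc80, Nusap1 and Top2a). They made up 63.6% of the members that rose in BMDMs and 29.2% of those that rose in fibroblasts. In the 6 fits without 1 BMDM library, the BMDM call held 6 times for Ndc80, 4 for Top2a and 2 each for Anln and Bub1. It held 1 time each for Kif20b and Ncapd2 and 0 times for Nusap1. Over all genes tested, 100 (0.700%) rose past the threshold in both. Leaving out 1 BMDM library, with the fibroblast calls kept from all libraries, gave 1 to 6 members in both, against 0.315 to 0.469% of all genes. The number was 1 (Ndc80) without WT replicate 1 or replicate 1 labelled PHD2cko, 4 and 3 without WT replicates 2 and 3, and 6 and 2 without replicates 2 and 3 labelled PHD2cko. Leaving out 1 fibroblast library gave 2 to 7, against 0.406 to 0.903% of all genes. The number was 7 without replicate 1 (with Cenpa in place of Nusap1) or 2 in WT medium or replicate 2 in PHD2cko medium, 4 without replicate 3 in WT medium or replicate 1 in PHD2cko medium, and 2 (Bub1 and Top2a) without replicate 3 in PHD2cko medium. With all libraries, a further 4 rose past the threshold in BMDMs alone (Cenpa, Tacc3, Tmpo and Tubb4b), 17 in fibroblasts alone, and 24 in neither. Over all genes, 3.38% rose in BMDMs and 8.93% in fibroblasts, alone or in both. Estimates were above 0 in both for 49 members, the fewest possible with 50 above 0 in BMDMs and 51 in fibroblasts. Passing in 1 cell type alone does not show a difference between them, which was tested as an interaction. For 1 member the effect in fibroblasts was higher than that in BMDMs (7.71% of all genes) and for 1 it was lower (4.58% of all genes), and these were Lbr and Psrc1. The difference for Lbr was 0.36 (SE 0.0640, adjusted p = 0.00278, edgeR) and that for Psrc1 was -0.86 (SE 0.0817, adjusted p = 8.5e-05, edgeR), each fibroblast minus BMDM log2 fold change. In BMDMs, Psrc1 was at 14.1, 14.8 and 16.2 CPM in WT and 16.2, 15.9 and 17.1 CPM with the PHD2cko label, with overlap and a log2 fold change of 0.13. Mki67, whose log2 fold changes were 0.18 and 0.64, had a difference of 0.46 that did not pass (SE 0.170, adjusted p = 0.103, edgeR).

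The levels of the members in the 2 cell types were compared in the WT groups. The summed CPM was 2915 in WT BMDMs and 2801 in 3T3 in WT medium, while single genes differed widely. In WT BMDMs 24 members were higher and 15 lower past the threshold, against 40.4% higher and 44.9% lower over all genes tested. These counts and the folds below include replicate 1 in WT medium, the library that deviated by length. In the 6 fits that left out 1 library, the log2 fold change ran from 1.28 to 1.57 for Mki67 and from -1.54 to -1.30 for Cks1b. Ccnb2 was 7.31-fold higher in BMDMs (log2 fold change 2.87), followed by Gas2l3 (5.10-fold), Kif23 (2.89-fold), Mki67 (2.74-fold), Cdca3 (2.22-fold), Nusap1 (2.15-fold) and Ube2c (2.10-fold). Cbx5, which encodes the heterochromatin protein HP1 alpha, was 5.52-fold lower in BMDMs (log2 fold change -2.46), with Psrc1 4.06-fold and Cks1b, a small CDK-binding subunit, 2.72-fold lower. Top2a, Tacc3, Hmgb2, Cenpf and Ect2 differed by 1.01- to 1.05-fold and did not pass. Cell type, mouse strain, medium and serum all differ between these groups and cannot be told apart.

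Per kb of annotated exon, the highest members in WT BMDMs were Tubb4b (37.5 CPM per kb), Mki67 (35.0), Ccnb2 (34.3) and Smc4 (27.7), and the lowest were Ndc80 (2.74), Ttk (2.07) and Cdc25c (1.14). In 3T3 in WT medium the order began with Tubb4b (51.1 CPM per kb), Cks1b (33.4), Cbx5 (30.7) and Smc4 (29.7) and ended with Ttk (1.97), Dlgap5 (1.95) and Cdc25c (1.56). Ccnb2 was at 4.70 CPM per kb there. With the PHD2cko label the 5 highest members were in the same order as in WT in both cell types.

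**Figure D5:**
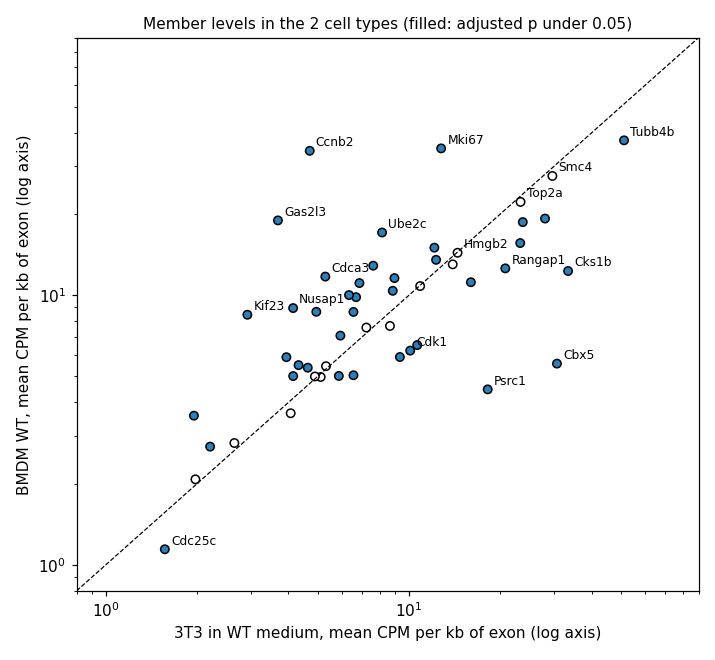
Mean CPM per kb of exon of the 52 members in WT BMDMs (vertical, log axis) against 3T3 in WT medium (horizontal, log axis), with the line of equal level dashed and members past the threshold filled. Ccnb2, Gas2l3, Kif23 and Mki67 lie above the line, and Cbx5, Psrc1 and Cks1b below it.

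Other genes of the same programme were read from lists that hold none of the 52. Of 51 related mitosis genes, 10 rose and 1 fell in BMDMs (median log2 fold change 0.20), and 20 rose and 0 fell in fibroblasts by edgeR (median 0.23; 29 at an unadjusted p under 0.05, all higher). Over all genes, 3.38% were higher and 3.35% lower in BMDMs, and 8.93% higher and 6.75% lower in fibroblasts. In BMDMs the smallest p belonged to Fbxo5, the inhibitor of the anaphase-promoting complex (log2 fold change 0.55), Ncapg2 of condensin II (-0.32), Smc2 of condensin (0.32) and Wee1, the kinase that restrains CDK1 (0.38). In fibroblasts they included Ncaph of condensin I (0.39), Bub1b of the checkpoint (0.38) and Prc1 of the central spindle (0.33). Ccnb1 and Ccna2, the other mitotic cyclins, had log2 fold changes of 0.11 and 0.19 in BMDMs, not past the threshold, and rose by 0.23 and 0.29 in fibroblasts. Plk1, the polo kinase, had 0.19 and 0.26 and passed in neither. Without replicate 1 in WT medium, 25 related mitosis genes were higher in fibroblasts (median 0.24), against 11.9% of all genes.

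Of 15 regulators of these genes, 0 passed in BMDMs by edgeR (4 higher and none lower at an unadjusted p under 0.05). The 4 were Mybl2 (log2 fold change 0.45, adjusted p = 0.132), Nfya (0.12), E2f5 (0.23) and Rbl1 (0.17), and Foxm1 had 0.15 (adjusted p = 0.301). In fibroblasts Nfya of NF-Y (0.28), Lin54 of DREAM (0.35), Foxm1 (0.25) and Rbl1, which encodes p107 (0.29, each a log2 fold change), rose and none fell, against 8.93% of all genes higher. Mybl2 had 0.27 there and did not pass. Without replicate 1 in WT medium, 6 regulators were higher and 1 lower, against 11.9% and 7.65% of all genes. Of 16 genes of the anaphase-promoting complex outside the 52 (its subunits, the co-activator Fzr1 and the ubiquitin-conjugating enzyme Ube2s), Anapc15 rose in BMDMs (0.61) and Anapc16 fell in fibroblasts by 0.21 on the log2 scale (adjusted p = 0.0490, edgeR), and no other passed. Over all genes, 3.38% were higher in BMDMs and 6.75% lower in fibroblasts. The call on Anapc16 held in 1 of 9 other alternatives and in 2 of 6 fits without 1 library, where its log2 fold change ran from -0.26 to -0.12, the latter without replicate 1 in WT medium.

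Of 43 S phase genes, 10 rose in BMDMs (median log2 fold change 0.18), against 3.38% of all genes, led by p by Rrm2 (0.91), Pcna (0.48), Mcm6 (0.43) and Mcm2 (0.38). In fibroblasts 16 rose (median 0.26), against 8.93% of all genes, led by p by Mcm5 (0.57), Uhrf1 (0.59), Mcm6 (0.39) and Mcm2 (0.26), and none fell in either. Without replicate 1 in WT medium, 25 were higher (median 0.29), against 11.9% of all genes. Of the CDK inhibitors, 5 of 7 were expressed enough to test. Cdkn1a, the p53-induced inhibitor p21, was at 184, 186 and 177 CPM in WT BMDMs and 156, 158 and 149 CPM with the PHD2cko label, and at 122, 110.4 and 116 CPM in 3T3 in WT medium and 85.2, 72.7 and 84.3 CPM in PHD2cko medium. All 3 libraries with the PHD2cko label were below WT in both cell types (log2 fold change -0.24, adjusted p = 0.0326 in BMDMs and -0.53, adjusted p = 2e-04 in fibroblasts, edgeR), though in BMDMs the call was lost whenever a library was left out. Cdkn1b, which encodes p27, fell by 0.20 on the log2 scale in fibroblasts. Both falls in fibroblasts passed without replicate 1 in WT medium, where 1 CDK inhibitor was also higher.

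Some counts are uncertain for reasons of sequence. Members that overlap a gene on the other strand were Cdc25c, Cdc20, Ube2c, Rangap1, Nusap1, Tacc3, Tubb4b and Lbr, besides Cenpf, which overlaps a pseudogene, and whether counting used strand was not given. Of those overlapping genes, Elovl1, Zc3h7b, Tmem129 and Gm3550 had summed counts of 21008, 23311, 4572 and 2676, against 8706, 19401, 9245 and 1523 for Cdc20, Rangap1, Tacc3 and Cdc25c, and Dnah14 had 149 against 13422 for Lbr. Hmgb2, Cks1b, Cks2, Tubb4b, Tmpo and Anp32e have close relatives or pseudogene copies between which reads can be split. Hmgb2 and Ckap2 lie on chromosome 8, as does Egln1.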

How the data were processed

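Poly(A) RNA had been sequenced from 12 libraries in 4 groups of 3. The authors deposited expected counts per gene, estimated with Kallisto on GRCm38 and summed to genes, without normalization. The values are whole numbers, and how they were rounded is not given in the sources used here. All 12 columns matched a library's labels, and 0 were left over. The 52 members and the other lists were chosen with earlier results of these data known. Per-library values are given for the called member with the largest change in each role group, or the member with the smallest p where none was called, and for Cdk1, Ccnb2, Aurkb, Top2a and Mki67. From each other list at most 4 genes with the smallest p are named, besides Foxm1, Mybl2, Ccnb1, Ccna2, Plk1 and Cdkn1a. A feature of the background shared by all the mice, and 1 gene of the related mitosis list, are not reported here.

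The counts were fitted with edgeR 4.0.16 in R 4.3.3. filterByExpr kept 14285 of 32544 genes, libraries were scaled by TMM, and all 12 entered 1 quasi-likelihood model with group as its only term. Tests were two-sided, p-values were adjusted by the Benjamini-Hochberg method across the genes kept, and the threshold on them was 0.05. Standard errors are the log2 fold change divided by the root of F. CPM are over the effective library, and those of markers over the total count. Exon lengths are the union of exons in GENCODE on GRCm38, and promoter sequences are those of RefSeq on GRCm38.p6. The pipeline was also run on simulated counts, drawn for each gene separately and so without the length deviation of replicate 1 in WT medium. No result of that run is used here. Alternatives were DESeq2's size factors, the DESeq2 1.42.0 Wald test, limma 3.58.1 with voom (the study's method), 2 other filters (10 counts in every library, or 1 count in all), 6 libraries alone, the replicate number as a block, leaving out each library, and subtraction of the macrophage share.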

Additional observations from a re-analysis of the deposited data

Results flagged for a closer look

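Some genes had a label effect in 3T3 fibroblasts that differed from that in BMDMs by the interaction test of edgeR, given here as the fibroblast minus the BMDM log2 fold change. Among the 52 members these were Psrc1 (-0.86, adjusted p = 8.5e-05) and Lbr (0.36, adjusted p = 0.00278). Among the related mitosis genes, Ncapg2 of condensin II differed by 0.61 (adjusted p = 6.8e-04), having fallen in BMDMs (-0.32) and risen in fibroblasts (0.29). Fbxo5 differed by -0.42 (adjusted p = 0.0378), with log2 fold changes of 0.55 in BMDMs and 0.13 in fibroblasts. Tyms, which makes thymidylate for DNA synthesis, differed by 0.38 (adjusted p = 0.0253), and neither of its own effects passed (-0.25 and 0.13). Cdkn1b differed by -0.27 (adjusted p = 0.00880), with 0.07 in BMDMs and -0.20 in fibroblasts.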

How the results depend on the processing

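The number of members past the threshold depended on which libraries were fitted more than on the tool or filter. Leaving out single libraries gave 1 to 12 higher and 0 to 1 lower in BMDMs (11 and 1 with all), 6 to 36 higher in fibroblasts (24 with all), and 1 to 2 members in each direction for the difference between the effects (1 and 1). Fitting the 6 libraries of a comparison alone gave 30 higher in BMDMs and 9 in fibroblasts. The DESeq2 Wald test gave 2 higher for the difference, against 8.74% of all genes. The cause of these shifts was not tested. Signs turned only in fits without 1 library, for members near 0 and not past the threshold. Their log2 fold changes ran from -0.043 to 0.170 for Cdc25c and from -0.136 to 0.064 for Hmgb2 in BMDMs, and from -0.019 to 0.121 for Cdc25c and from -0.030 to 0.092 for Tubb4b in fibroblasts. With DESeq2's size factors, limma-voom, either filter and the macrophage share subtracted, the counts of members past the threshold stayed within 1.5 times those of the 12 libraries. Scaled by the total count, the summed CPM was 15.4% higher in BMDMs and 19.0% higher in fibroblasts.

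With the replicate number as a block, 8 members were higher and 1 lower in BMDMs, 18 and 1 in fibroblasts, 24 and 14 between the cell types and 1 and 1 for the difference. Over all genes, that fit called 2.77% higher and 2.94% lower, 7.81 and 5.86%, 40.3 and 44.7%, and 6.81 and 3.98%, in the same order. No pairing by replicate number was seen in the counts, and whether libraries of the same number share a source is not given. Correlations of same-numbered deviations lay between -0.118 and 0.0433, and 1, 1, 0 and 1 of the 3 libraries correlated best with their own number in the 4 pairs of groups. With 3 libraries a group, exact permutation tests cannot fall under p = 0.1.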
